A study of Nothobranchius furzeri with 30 samples.

Results

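The classical cadherins, protocadherins and giant cadherins of the killifish retina, together with the α- and δ-catenins of the cadherin complex, were followed over adult life in bulk RNAseq counts. Loci were taken by the gene name in the deposited annotation (CDH with a number, PCDH, CELSR, FAT1 to FAT4, DCHS, CTNNA and CTNND), without the Usher complex members PCDH15 and CDH23. These names were carried by 74 of 24989 deposited loci. Of these, 54 had enough counts to be tested among 13975 tested loci, and 20 did not, with at most 174 counts summed over all fish. Some copies cannot be told apart by name, since, leaving copy marks such as (1OF2) aside, 15 of the 49 distinct names sat on several loci and 40 loci shared a name. Loci that share a name are therefore told apart by identifier. Whether they are separate genes or pieces of the same gene was not settled, and reads of near-identical copies could have been split between loci.

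All 30 fish were wild-type, untreated females of the short-lived inbred GRZ-AD strain of the African turquoise killifish, Nothobranchius furzeri. The groups were young (6 weeks), middle-aged (12 weeks) and old (18 weeks) fish, with 10 fish per age, and both neural retinas of a fish formed 1 sample after the lens and the retinal pigment epithelium (RPE) had been taken off. The design has no other strain, sex or treatment. In whole tissue, fewer cells of a type and less RNA per cell cannot be told apart.

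Cadherins are calcium-dependent adhesion proteins that mostly bind their own kind on the neighbouring cell. Classical cadherins hold cells together through β-catenin and α-catenin, which couple them to actin, and p120-type δ-catenins keep them at the membrane. Protocadherins adhere more weakly: clustered protocadherins give single neurons an identity code, and δ-protocadherins sort axons and synaptic partners. In the vertebrate retina these families are known for layering, for axon paths and for the pairing of neurons in the synaptic layers, mostly from work on development in mouse, chicken and zebrafish.

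Libraries held 3552371 to 5840792 counts on loci. Rod marker loci summed to 13870 to 22870 CPM (counts relative to library size, scaled with TMM factors) in every fish. RPE markers moved with age: their 15 loci summed to 893 to 1750 CPM at 6 weeks, 356 to 1936 CPM at 12 weeks and 417 to 1002 CPM at 18 weeks, and 9 of the 11 tested loci were lower at 18 than at 6 weeks. Cone marker loci also fell, with 4 of 5 lower and a summed level of 5545 to 9064 CPM at 6 weeks against 3719 to 4928 CPM at 18 weeks, and 5 of 8 tested immune cell markers were higher. Of the other markers tested, 2 of 5 Müller glia loci were higher and 1 lower, 3 of 11 rod loci were higher, 1 of 10 retinal ganglion cell loci was higher and 2 were lower, and 1 of 8 bipolar cell loci was higher and 2 were lower. Amacrine cells had 1 of 12 loci higher, horizontal cells 1 higher and 1 lower of 5, vessel endothelium 2 of 5 higher, oligodendrocytes 3 higher and 1 lower of 8, proliferating cells 1 higher and 1 lower of 9, lens 1 of 2 higher and red blood cells 1 of 2 lower. On the first principal component of all tested loci, 18-week fish 1 stood apart at 101, with 18-week fish 4 next at 27.7.

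The levels of the family are given first, as mean CPM over the 30 fish. QuantSeq reads only the tail end of each transcript, so these counts carry no scaling for length. The highest locus was PCDH2AC XLOC_002164, a clustered protocadherin, with a mean of 481 CPM and reads in 57.9% of the cells of the deposited single-cell annotation, a pooled value of the authors. The δ2-protocadherins PCDH17 (XLOC_013337) and PCDH19 (XLOC_005256) followed at 102 and 99.0 CPM, close to a further PCDH2AC locus, XLOC_017179, at 101.5 CPM. CTNNA2 XLOC_006498, the neural α-catenin, had 89.1 CPM and reads in 53.6% of cells. The other leading loci of their classes were CTNND2A, a neural δ-catenin, at 76.3 CPM, CDH2 (1 OF 2), N-cadherin, at 67.9 CPM, PCDH11X, a δ1-protocadherin, at 56.6 CPM, FAT1, a giant cadherin, at 32.1 CPM, and CDH18(1OF2), a type II classical cadherin, at 25.5 CPM. PCDH20 at 6.27 CPM and CDH13, a cadherin with a lipid anchor in place of a cytoplasmic tail, at 4.16 CPM led the small remaining groups. The tested members had a median level of 13.9 CPM, near the 14.0 CPM of all tested loci. Levels in whole retina and the percent of single cells with reads ran in parallel over the 54 members (Spearman's rho 0.855, a description across loci that share the same libraries), as they did over all tested loci (0.817).

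**Figure D1:**
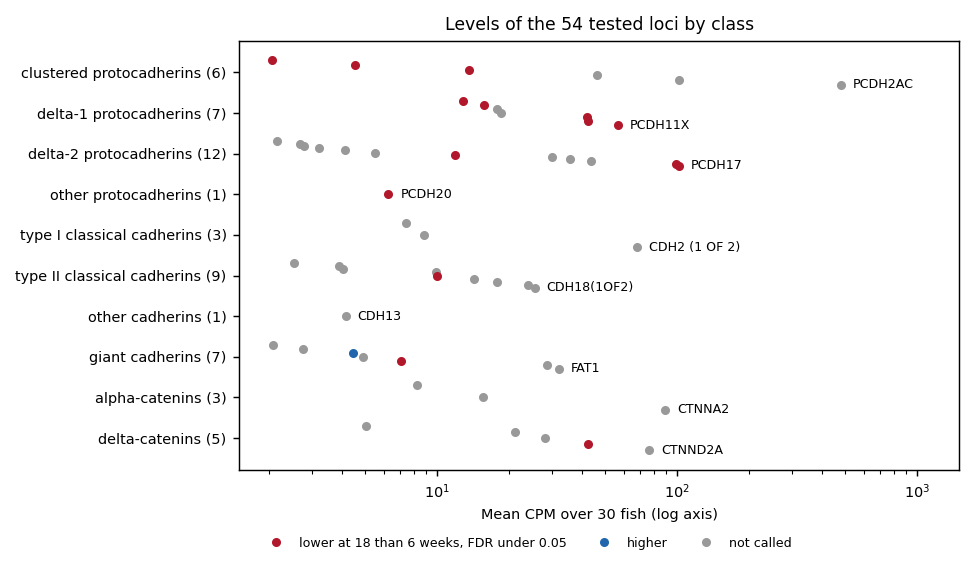
Mean CPM of each of the 54 tested loci over 30 fish, on a log axis, by class, with the number tested in brackets and the highest locus of each class named. Red points mark the 15 loci that were lower at 18 than at 6 weeks with TMM factors (3 with library size alone), blue the 1 that was higher (13 with library size alone), and the highest locus, PCDH2AC at 481 CPM, was not called.

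The untested loci had few or no counts. PCDH8 XLOC_020646 and FAT4(2OF2) XLOC_012033 had 0 counts in every fish, although reads were found in 1.14% and 0.0204% of single cells. A count of 0 in these bulk data therefore need not mean that a locus was silent. The other 18 untested loci had between 3 and 174 counts in all. Among them were CDH15, known from muscle, with 51 counts, CDH16 and CDH17, known from kidney and gut in mammals, with 82 and 128, PCDH12, known from vessel endothelium in mouse, with 26, and FAT2 with 74. These 5 were picked after their values had been seen. The 3 neighbouring CDH26(1OF2) loci held 18, 13 and 15 counts, and 7, 10 and 14 of these came from 6-week fish 6 alone.

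Relative to other transcripts, with TMM factors, old retinas held less RNA for a group of protocadherins and for the classical cadherin CDH24(2OF2). The classical cadherins CDH2 and CDH4 and the α-catenins were not called. Differences between classes were not tested. At 18 against 6 weeks, 15 of the 54 tested members were lower at an FDR under 0.05, against 15.2% of all tested loci, and 1 was higher, against 14.0% of all tested loci. Protocadherins made up 12 of the 15. The median log2FC of the members was -0.17, beside 0.02 over all tested loci, and 39 of 54 members had a negative log2FC. By a log2FC of at least 1 in size as well, 1 member was lower (2.03% of all tested loci) and 0 were higher (1.31%). At an unadjusted p under 0.05, 22 members were lower (19.8% of all loci) and 5 higher (19.9%), and DESeq2 called 18 lower (16% of all loci) and 1 higher (14.3%). The share of members called lower, 15 of 54, is read against the 15.2%, without a test of its own.

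The lower calls rest largely on the scaling. TMM factors themselves moved with age, from 0.827 to 0.995 at 6 weeks and from 0.991 to 1.209 at 18 weeks. Past both thresholds, 1.31% of all tested loci were higher and 2.03% lower in this fit. The paper reports more genes higher than lower at these thresholds, and it does not name its scaling. With library size alone the median log2FC of all tested loci moved up to 0.32 at 18 against 6 weeks, and 3 members were lower (4.56% of all loci) and 13 higher (46.1%). The 3 were PCDH2AC XLOC_002511, PCDH7B and PCDH9 XLOC_012870, which were thus lower under both scalings. Below the median of all loci lay 40 of 54 members with TMM factors and 39 of 54 with library size alone. A change of scaling moves all loci by nearly the same amount, so this place could hardly differ and is no separate support. Counts of single classes are read against the shares of all loci called by the same rule, without a test of their own. With TMM factors these are 15.2% lower and 14.0% higher, and at an unadjusted p under 0.05 they are 19.8% and 19.9%. With DESeq2 they are 16% and 14.3%, and with library size alone 4.56% and 46.1%.

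**Figure D2:**
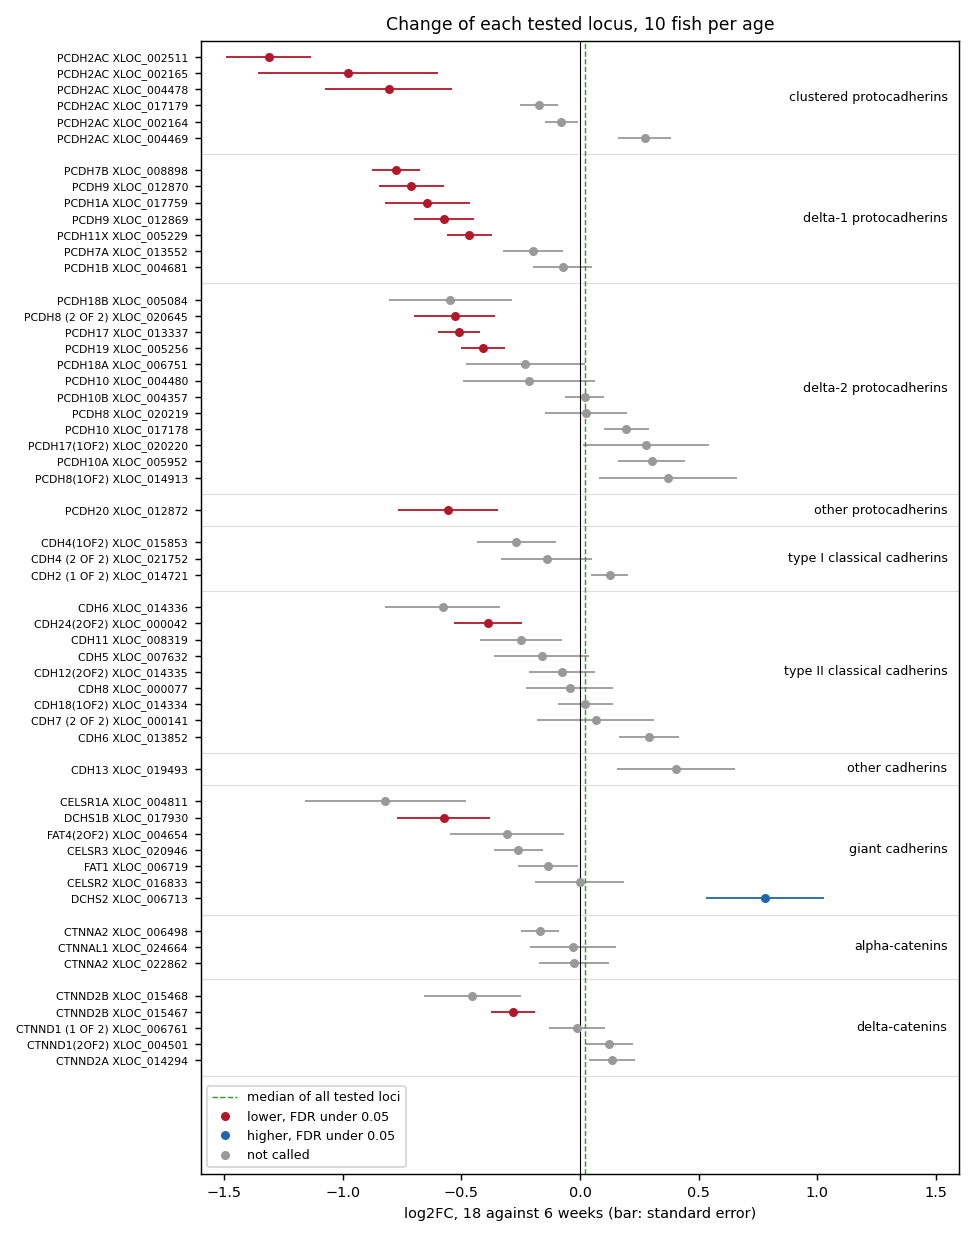
log2FC of each tested locus at 18 against 6 weeks with its standard error, by class, from the edgeR fit with TMM factors, and the median of all tested loci as a dashed line at 0.02. All 7 δ1-protocadherins lie below 0 with TMM factors (5 with library size alone), and DCHS2 at 0.78 is the 1 locus called higher.

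The δ1-protocadherins, long-tailed protocadherins that can recruit phosphatase, were the class with the largest share of calls among those with more than 1 tested locus. Of 8 loci 7 were tested, and 5 were lower (15.2% of all tested loci) and 0 higher (14.0%), with a median log2FC of -0.57. At an unadjusted p under 0.05 and by DESeq2, 0 were higher and 5 lower. With library size alone 2 were lower and 0 higher. All 7 lay below the median of all loci under both scalings, a place that the choice of scaling hardly moves. PCDH7B (XLOC_008898, pcdh7 in the second name column), whose Xenopus relative takes part in the growth of retinal axons, ranged from 40.1 to 64.5 CPM at 6 weeks (median 51.7), from 33.8 to 60.8 at 12 weeks (46.8) and from 24.8 to 32.9 at 18 weeks (30.9). Every old fish lay below every young and every middle-aged fish, the only member without overlap in either comparison. Of all tested loci, 1.33% did not overlap and were lower at 18 against 6 weeks (1.01% higher, with 0 members), and 0.379% at 18 against 12 weeks. In CPM on library size alone, ages overlapped. Its log2FC was -0.78 ± 0.10 (SE, edgeR FDR = 3.44e-07) at 18 against 6 weeks and -0.60 ± 0.10 (FDR = 9.27e-05) at 18 against 12 weeks.

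PCDH9, known in mouse from neurons of the brain, was carried by a pair of loci, which may be pieces of the same gene, and both fell. XLOC_012869 ranged from 39.1 to 63.2 CPM at 6 weeks (median 48.2), from 32.0 to 58.4 at 12 weeks (41.1) and from 16.8 to 40.8 at 18 weeks (34.6), with a log2FC of -0.57 ± 0.13 (edgeR FDR = 5.94e-04) at 18 against 6 weeks. The lower-level XLOC_012870 went from 12.0 to 20.3 CPM (16.1) through 7.80 to 17.9 (13.1) to 7.36 to 12.4 (9.64), and 9 of 10 old fish lay below all young fish. Its log2FC was -0.71 ± 0.14 (FDR = 1.63e-04). Reads were found in 11.7% of single cells for the first locus and in 1.76% for the second.

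PCDH1A XLOC_017759, whose mammalian relative is known from epithelia, ranged from 8.54 to 23.7 CPM at 6 weeks (median 19.7), from 11.1 to 21.5 at 12 weeks (15.4) and from 5.66 to 17.2 at 18 weeks (12.8). Young and old fish overlapped, with 3 of 10 old fish below all young fish and a log2FC of -0.64 ± 0.18 (edgeR FDR = 0.0056). PCDH11X (XLOC_005229), whose human relative lies on the X chromosome, ranged from 47.3 to 77.0 CPM at 6 weeks (66.7), from 49.5 to 75.8 at 12 weeks (55.4) and from 36.8 to 57.5 at 18 weeks (46.0), and its log2FC was -0.47 ± 0.09 (FDR = 2.8e-04). Here 5 of 10 old fish lay below all young fish. The other tested δ1 loci, PCDH7A and PCDH1B, were not called, with a log2FC of -0.20 ± 0.13 and -0.07 ± 0.12, so that the a and b copies of PCDH7 and of PCDH1 did not share a call. The difference between copies was not tested.

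Clustered protocadherins, whose combinations mark single neurons, were lower in their less abundant loci. All 6 tested loci of this class carried the name PCDH2AC, after a fish cluster described in zebrafish. Of these, 3 were lower (15.2% of all tested loci) and 0 higher (14.0%), with a median log2FC of -0.49. With library size alone the median was -0.19, and 1 was lower and 2 were higher. At an unadjusted p under 0.05, 4 were lower and 1 higher, and DESeq2 called 3 lower and 0 higher. XLOC_002511 was the member past both thresholds, at 10.5 to 28.6 CPM at 6 weeks (median 19.2), 8.95 to 18.6 at 12 weeks (13.0) and 3.21 to 12.6 at 18 weeks (7.36). The middle-aged fish lay between the other ages, and 9 of 10 old fish lay below all young fish. Its log2FC was -1.31 ± 0.18 at 18 against 6 weeks (edgeR FDR = 7.45e-07) and -1.01 (FDR = 2.66e-05) with library size alone.

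The other called PCDH2AC loci were rarer. XLOC_004478 went from 2.68 to 9.31 CPM at 6 weeks (median 7.59) to 2.19 to 6.87 at 12 weeks (3.23) and 0.377 to 6.46 at 18 weeks (3.42), a log2FC of -0.81 ± 0.27 (edgeR FDR = 0.0207). Only 1 of the old fish lay below all young fish. XLOC_002165 ranged from 1.19 to 7.11 CPM at 6 weeks (1.79), from 0.952 to 3.57 at 12 weeks (2.30) and from 0.189 to 2.97 at 18 weeks (0.811), a log2FC of -0.98 ± 0.38 (FDR = 0.0468), and the call was lost without any 1 of 12 fish (6-week fish 2, 5, 6, 7 or 8, or 18-week fish 1, 2, 3, 4, 5, 6 or 8; FDR 0.0526 to 0.167).

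At the top of the class no change was called. XLOC_002164 held 430 to 575 CPM at 6 weeks (median 497), 393 to 558 at 12 weeks (464) and 438 to 505 at 18 weeks (479), with a log2FC of -0.08 ± 0.07 (edgeR FDR = 0.42). With library size alone its sign turned, to 0.23 (FDR = 0.0199), below the median of 0.32 over all loci. XLOC_017179 and XLOC_004469 had a log2FC of -0.17 ± 0.08 and 0.27 ± 0.11 (FDR = 0.104 and 0.0605). By gene identifier in the RefSeq table of assembly NfurGRZ-RIMD1, XLOC_017179 neighbours PCDH10 XLOC_017178 and PCDH1A XLOC_017759, and XLOC_004469, annotated there as pcdhb, neighbours the untested XLOC_004470 and PCDH2AA1. Of these neighbours by gene identifier, PCDH1A XLOC_017759 was called lower, and XLOC_017179 and PCDH10 XLOC_017178 were not.

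Among δ2-protocadherins, which in mammals and zebrafish act in axon growth together with actin regulators, 12 of 13 loci were tested. Of these, 3 were lower (15.2% of all tested loci) and 0 higher (14.0%), with a median log2FC of -0.10. Library size alone gave 0 lower (4.56% of all loci) and 3 higher (46.1%), with a median of 0.20. With TMM factors, 4 were lower and 2 higher at an unadjusted p under 0.05. DESeq2 called 3 lower and 0 higher. PCDH17, which gathers axons of a kind in mouse forebrain, ranged from 100.2 to 140.5 CPM at 6 weeks (median 124), from 84.6 to 128 at 12 weeks (99.1) and from 61.7 to 103 at 18 weeks (87.3). Here 9 of 10 old fish lay below all young fish, and the log2FC was -0.51 ± 0.09 (edgeR FDR = 2.8e-05; -0.20, FDR = 0.0941, with library size alone). PCDH19, which works with N-cadherin in zebrafish and underlies an epilepsy in humans, and PCDH8 (2 OF 2), named from a gene of activity-driven adhesion in rat neurons, are called members outside the naming rule and were added after their values had been seen. PCDH19 went from 89.7 to 129 CPM (114.5) through 79.7 to 133 (98.9) to 65.8 to 103 (82.4), a log2FC of -0.41 ± 0.09 (FDR = 0.001), and PCDH8 (2 OF 2) XLOC_020645 had a log2FC of -0.53 ± 0.17 (FDR = 0.0176).

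The remaining δ2 loci spread to both sides and were not called. Below 0 lay PCDH18B XLOC_005084, PCDH18A XLOC_006751 and PCDH10 XLOC_004480, with log2FC values of -0.55, -0.23 and -0.22 (edgeR FDR = 0.108, 0.523 and 0.596). Further tested PCDH8 loci, XLOC_020219 and PCDH8(1OF2) XLOC_014913, had log2FC values of 0.03 and 0.37 and were not called (edgeR FDR = 0.934 and 0.355). Neither was PCDH17(1OF2) XLOC_020220, with 0.28 (FDR = 0.456). The 3 loci with a PCDH10 name above 10 CPM, PCDH10 XLOC_017178, PCDH10A and PCDH10B, had log2FC values of 0.20, 0.30 and 0.02 and were not called (edgeR FDR = 0.11, 0.106 and 0.883). XLOC_017178 neighbours PCDH2AC XLOC_017179 by gene identifier, so its place in this class rests on its name alone and is uncertain. PCDH10 is known in mouse for guiding striatal axons. PCDH20 (XLOC_012872), outside these classes, ranged from 4.32 to 14.7 CPM at 6 weeks (median 7.47), from 4.04 to 8.20 at 12 weeks (5.72) and from 2.83 to 9.06 at 18 weeks (4.33), a log2FC of -0.56 ± 0.21 (FDR = 0.0424). Its call was lost without any 1 of 12 fish (6-week fish 3, 5, 6, 7 or 10, or 18-week fish 1, 3, 4, 6, 7, 9 or 10; FDR 0.052 to 0.129).

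Over all protocadherins together, 26 of 33 loci were tested. At 18 weeks 12 were lower (15.2% of all tested loci) and 0 higher (14.0%), with a median log2FC of -0.32. With library size alone 3 were lower (4.56% of all loci) and 5 higher (46.1%), and the median was -0.02. At an unadjusted p under 0.05, 14 were lower and 3 higher with TMM factors, and DESeq2 called 12 lower and 0 higher. Below the median of all loci lay 20 of 26 with TMM factors and 19 of 26 with library size alone, a place that the choice of scaling hardly moves.

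**Figure D3:**
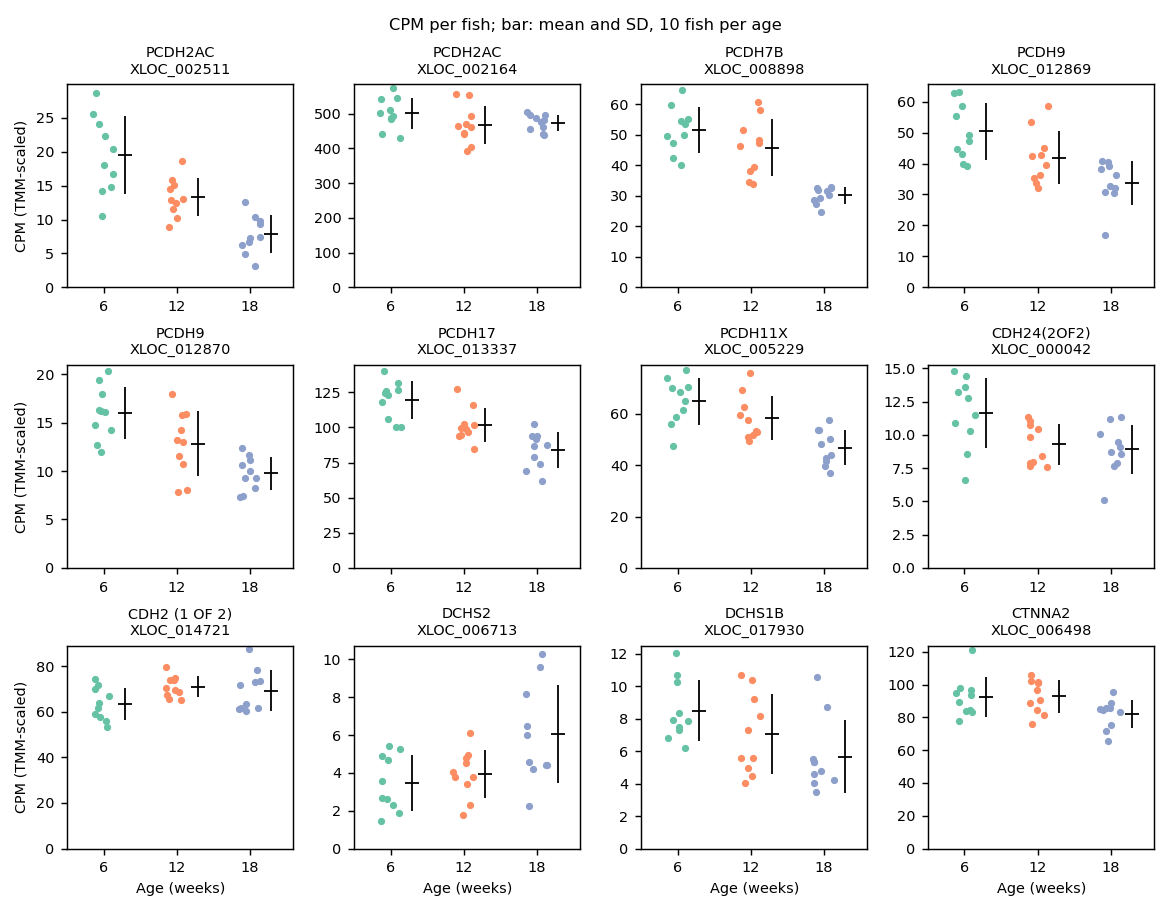
CPM (TMM-scaled) per fish for 12 loci at 6, 12 and 18 weeks, with the mean and SD of 10 fish per age. All old fish of PCDH7B, at 24.8 to 32.9 CPM, lie below all young fish, at 40.1 to 64.5 CPM, while the ages overlap in CDH24(2OF2), CDH2 (1 OF 2), CTNNA2 and the abundant PCDH2AC locus; on library size alone PCDH7B overlaps too.

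Among classical cadherins, 12 of 17 loci were tested, and 1 was lower (15.2% of all tested loci) and 0 higher (14.0%), with a median log2FC of -0.11. Library size alone gave 0 lower (4.56% of all loci) and 3 higher (46.1%), with a median of 0.20. With TMM factors, 2 were lower and 1 higher at an unadjusted p under 0.05, and DESeq2 called 2 lower and 0 higher. The called locus was CDH24(2OF2) (XLOC_000042), a type II classical cadherin that in human cells binds catenins and supports adhesion. It held 6.63 to 14.8 CPM at 6 weeks (median 12.12), 7.57 to 11.4 at 12 weeks (9.11) and 5.09 to 11.4 at 18 weeks (8.91), or 27 to 64 counts per fish over the young and old fish. Middle-aged and old fish reached the same highest level, young fish reached higher, and 1 of the old fish, fish 1, lay below all young fish.

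The log2FC of CDH24(2OF2) was -0.39 ± 0.14 (edgeR FDR = 0.0359) at 18 against 6 weeks, -0.33 (FDR = 0.258) at 12 against 6 weeks and -0.06 (FDR = 0.832) at 18 against 12 weeks. The call was lost without any 1 of 9 fish (6-week fish 3, 7, 8, 9 or 10, or 18-week fish 1, 5, 6 or 7; FDR 0.051 to 0.074), and with library size alone the log2FC was -0.09 (FDR = 0.655). Reads were found in 2.84% of single cells.

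CDH2 (1 OF 2) XLOC_014721, N-cadherin, which holds neuroepithelial cells in place and is needed for retinal layering in zebrafish, ranged from 53.4 to 74.2 CPM at 6 weeks (median 62.7), from 65.2 to 79.7 at 12 weeks (70.1) and from 60.5 to 87.3 at 18 weeks (67.7). The ages overlapped, and its log2FC was 0.12 ± 0.08 (edgeR FDR = 0.232). R-cadherin, CDH4, first described in chicken retina, had a pair of loci: CDH4(1OF2) XLOC_015853 at 7.29 to 11.9, 5.88 to 11.8 and 3.73 to 10.5 CPM over the ages (medians 9.78, 8.78 and 8.84) and CDH4 (2 OF 2) XLOC_021752 at 3.82 to 12.8, 3.24 to 9.52 and 4.71 to 9.32 CPM (7.95, 8.21 and 7.33). Their log2FC values were -0.27 ± 0.17 and -0.14 ± 0.19 (FDR = 0.227 and 0.621), and neither was called. CDH18(1OF2), found in neurons of the brain in mammals, ranged from 19.2 to 32.3 CPM at 6 weeks (24.6), from 17.9 to 31.7 at 12 weeks (26.6) and from 14.2 to 29.4 at 18 weeks (26.7), a log2FC of 0.02 ± 0.12 (FDR = 0.909).

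The other type II loci, including CDH5 of vessel endothelium (4.05 CPM) and CDH6, CDH8 and CDH11, which in mouse mark sets of retinal neurons or mesenchyme, had log2FC values between -0.58 and 0.29 and were not called. The extremes were both CDH6 loci, at -0.58 ± 0.24 for XLOC_014336 (edgeR FDR = 0.0675) and 0.29 ± 0.13 for XLOC_013852 (FDR = 0.0774). CDH13 XLOC_019493 ranged from 1.39 to 5.49 CPM at 6 weeks (median 3.82), from 1.79 to 6.86 at 12 weeks (3.75) and from 2.62 to 9.05 at 18 weeks (4.21), and its log2FC of 0.40 ± 0.25 was not called (FDR = 0.229).

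The giant cadherins, which set planar polarity, held 1 call in each direction, shares near those of all tested loci. Of 10 loci 7 were tested, and 1 was lower (15.2% of all tested loci) and 1 higher (14.0%), with a median log2FC of -0.26. With library size alone the median was 0.04, and 0 were lower and 1 was higher. At an unadjusted p under 0.05, 3 were lower and 1 higher with TMM factors, and DESeq2 called 3 lower and 1 higher. DCHS1B (XLOC_017930), whose mouse relative is the ligand of Fat4, ranged from 6.2 to 12 CPM at 6 weeks (median 7.89), from 4.04 to 10.7 at 12 weeks (6.43) and from 3.50 to 10.6 at 18 weeks (5.05). Here 8 of 10 old fish lay below all young fish, while 1 old fish reached 10.6 CPM, and the log2FC was -0.57 ± 0.20 (edgeR FDR = 0.0243; 0.0568 without 6-week fish 5). DCHS2 (XLOC_006713), the other Dachsous gene, ranged from 1.46 to 5.45 CPM at 6 weeks (3.13), from 1.79 to 6.13 at 12 weeks (3.90) and from 2.26 to 10.3 at 18 weeks (5.27). It was the only member called higher with TMM factors, with 5 of 10 old fish above all young fish and a log2FC of 0.78 ± 0.25 (FDR = 0.0164). With library size alone DCHS1B had -0.28 (FDR = 0.228) and DCHS2 1.09 (FDR = 5.1e-04). The difference between DCHS1B and DCHS2 was not tested.

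FAT1 (XLOC_006719) was not called, at 29.0 to 38.9 CPM at 6 weeks (median 32.6), 25.3 to 40.9 at 12 weeks (31.8) and 18.2 to 53.9 at 18 weeks (30.1), a log2FC of -0.14 ± 0.13 (edgeR FDR = 0.443). The highest of the old values was that of 18-week fish 1, and without that fish the log2FC was -0.27 (FDR = 0.0415). The seven-pass cadherins CELSR1A and CELSR3, which orient axons and planar polarity in mouse, had log2FC values of -0.82 and -0.26 (FDR = 0.0651 and 0.0515), CELSR2 of close to 0 (FDR = 0.996), and FAT4(2OF2) XLOC_004654 of -0.31 (FDR = 0.351). DESeq2 called CELSR1A (FDR = 0.0446) and CELSR3 (FDR = 0.0456) lower.

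Of the catenins, α-catenins tie the cadherin complex to actin. In this class, set by name, 0 of 3 tested loci were called, with 1 lower and 0 higher at an unadjusted p under 0.05 and 0 called by DESeq2. It includes CTNNAL1 XLOC_024664, an α-catenin-like locus, with a log2FC of -0.03 ± 0.18 (edgeR FDR = 0.925). CTNNA2 XLOC_006498 ranged from 77.8 to 121 CPM at 6 weeks (median 91.6), from 75.6 to 106 at 12 weeks (93.5) and from 65.8 to 95.3 at 18 weeks (84.7), a log2FC of -0.17 ± 0.08 (edgeR FDR = 0.111). The second CTNNA2 locus, XLOC_022862, is ctnna1 in the second name column, so that its identity is uncertain. It ranged from 10.3 to 19.3 CPM at 6 weeks (14.7), from 10.7 to 24.8 at 12 weeks (16.9) and from 8.49 to 18.7 at 18 weeks (15.97), with a log2FC of -0.03 ± 0.15 (FDR = 0.915).

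The δ-catenins of the p120 family steady cadherins at the membrane and shape dendrites. Of 5 tested loci 1 was lower (15.2% of all tested loci) and 0 higher (14.0%), while library size alone gave 0 lower and 3 higher. The locus called lower was CTNND2B XLOC_015467, also outside the naming rule and named after its values had been seen, at 39.6 to 57.3 CPM at 6 weeks (median 44.5) and 32.7 to 46.3 at 18 weeks (36.6). Its log2FC was -0.28 ± 0.09 (edgeR FDR = 0.0197), and with library size alone the sign turned, to 0.02 (FDR = 0.87). The rarer CTNND2B locus, XLOC_015468, which may belong to the same gene, was not called, with -0.45 ± 0.20 (FDR = 0.089). It had -0.58 (FDR = 0.0379) without 18-week fish 1 and 4 and -0.15 (FDR = 0.571) with library size alone. CTNND2A, the paralogue of CTNND2B, ranged from 60.4 to 85.1 CPM at 6 weeks (73.4), from 56.0 to 92.2 at 12 weeks (76.2) and from 63.7 to 108.8 at 18 weeks (76.9), a log2FC of 0.14 ± 0.10 (FDR = 0.301).

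The markers that moved with age were set beside these calls. The mean log2 CPM of the 11 tested RPE loci was 5.42 ± 0.26 (SD, n = 10) at 6 weeks, 4.83 ± 0.62 (n = 10) at 12 weeks and 4.31 ± 0.35 (n = 10) at 18 weeks. The score did not overlap between young fish (4.925 to 5.775) and old fish (3.789 to 4.917), and the paper describes firmer RPE adherence in young retinas. Age and RPE content therefore cannot be told apart by a fit that holds both, and kept or lost calls are given as a description. With this score as a covariate, 13 members were lower (5.81% of all loci) and 0 higher (4.62%), and 9 of the 15 kept their call. These were PCDH2AC XLOC_002511, PCDH7B, both PCDH9 loci, PCDH1A, PCDH11X, PCDH17, PCDH19 and CTNND2B XLOC_015467. For PCDH7B the log2FC was -1.0 with the score and -0.78 without it. CDH24(2OF2) had -0.54 (edgeR FDR = 0.0957) and DCHS2 0.92 (FDR = 0.11) with the score. The part of the cone, immune and Müller glia markers in these results was not tested. Without 18-week fish 1 and 4, 15 members were lower and 1 higher, of which 13 and 1 were called with all fish. The shares of all loci without these fish are not given.

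**Figure D4:**
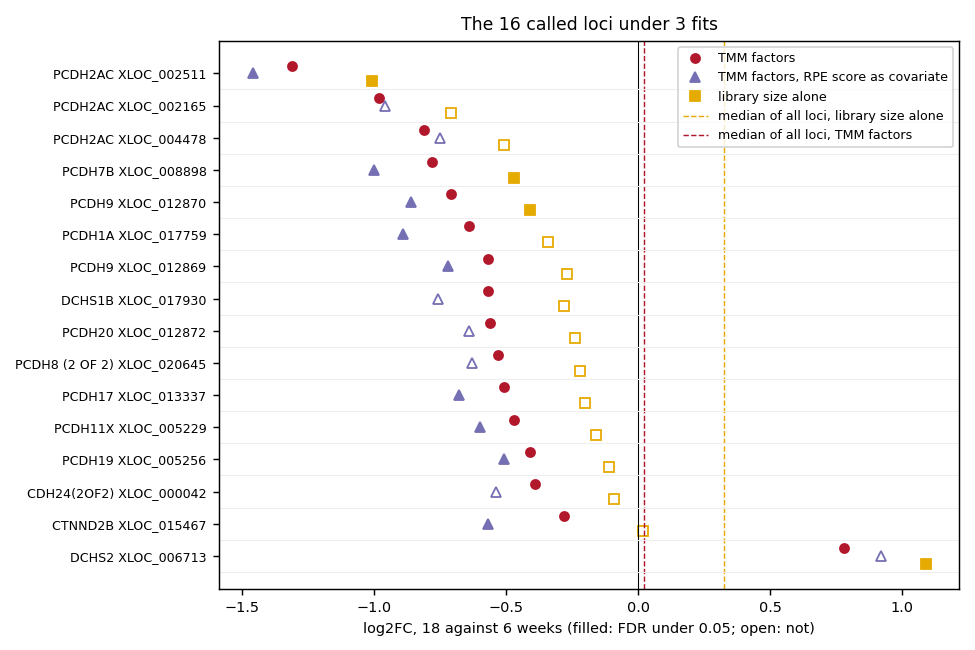
log2FC at 18 against 6 weeks of the 16 called loci in 3 fits (circles, TMM factors; triangles, TMM factors with the RPE score as covariate; squares, library size alone), filled where the FDR was under 0.05, with the median of all tested loci as dashed lines at 0.02 and 0.32. Filled in all 3 fits are PCDH2AC XLOC_002511, PCDH7B and PCDH9 XLOC_012870, and CTNND2B XLOC_015467 turns sign with library size alone.

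By middle age no member passed the test. At 12 against 6 weeks 0 of 54 members were lower (0.909% of all tested loci) and 0 higher (1.30%) in the edgeR fit, with 8 lower (7.11%) and 1 higher (7.70%) at an unadjusted p under 0.05, and DESeq2 called 0. The median log2FC was -0.10, beside 0.00 over all loci, and 40 of 54 values were negative. Past both thresholds there were 0 members, against 0.336% of all tested loci higher and 0.165% lower. PCDH2AC XLOC_002511 had the smallest FDR of the named members, with a log2FC of -0.55 (FDR = 0.0909), and it was called without 6-week fish 6 (-0.62, FDR = 0.0359).

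Between middle and old age, 4 members were lower, a share near the 6.93% of all tested loci, and 0 higher (5.19%). Unadjusted p-values lay under 0.05 for 11 lower (14.1%) and 4 higher members (12.6%), and DESeq2 called 6 lower (7.73%) and 0 higher (5.77%). All 4 were protocadherins that were also lower at 18 against 6 weeks, a comparison that shares the old fish: PCDH2AC XLOC_002511 with a log2FC of -0.77 ± 0.18 (edgeR FDR = 0.0045), PCDH7B with -0.60, PCDH11X with -0.32 ± 0.10 (FDR = 0.0244) and PCDH17 with -0.27 ± 0.09 (FDR = 0.0324). PCDH11X lost its call without 12-week fish 8 or 9 (FDR 0.0519 to 0.0622), and PCDH17 without either of these or 18-week fish 1, 3 or 7 (FDR 0.0556 to 0.078). Library size alone left 2 lower (2.86% of all loci), PCDH2AC XLOC_002511 and PCDH7B, and 5 higher (21.0%), with a median of all loci of 0.19.

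The partners of cadherins were looked at through 8 lists with 85 loci, 51 of them tested. At 18 against 6 weeks 9 of the 51 were higher (14.0% of all tested loci) and 8 lower (15.2%), shares near those of all loci, with a median log2FC of 0.04, beside 0.02 over all loci. With the RPE score as covariate 7 of these 17 loci kept their call. The single lists are therefore given as descriptions. At 12 against 6 weeks 0 were called (5 higher and 1 lower at an unadjusted p under 0.05, 0 by DESeq2), and at 18 against 12 weeks 2 were higher (5.19% of all tested loci) and 5 lower (6.93%). All values below are from 18 against 6 weeks.

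The catenin that joins cadherins to α-catenin rose: CTNNB1, β-catenin, ranged from 25.0 to 40.9 CPM at 6 weeks (median 33.0) and from 27.9 to 94.1 at 18 weeks (42.8), a log2FC of 0.51 ± 0.15 (edgeR FDR = 0.00832). It was not called without 18-week fish 1 and 4 (0.26, FDR = 0.0789) or with the RPE score as covariate (0.18, FDR = 0.654). CTNNBIP1, which keeps β-catenin from its transcription partners, ranged from 19.7 to 33.7 CPM at 6 weeks (25.7) and from 30.9 to 38.8 at 18 weeks (35.1), a log2FC of 0.44 ± 0.09 (FDR = 4.99e-04). This list had 2 of 3 tested loci higher and 0 lower (0 lower also at an unadjusted p under 0.05 and by DESeq2). Of the p120 relatives and plakophilins, 2 of 4 were lower, both PKP4, an armadillo protein of junctions: PKP4(1OF2) with -0.79 ± 0.14 (FDR = 2.81e-05) and PKP4(2OF2) with -0.29 ± 0.09 (FDR = 0.0185; 0.01 with library size alone).

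Of the actin linkers, 1 of 9 was higher and 2 were lower. TJP2A, a scaffold of tight junctions, was the partner past both thresholds, at 2.54 to 9.07 CPM at 6 weeks (median 7.28) and 1.13 to 6.41 at 18 weeks (2.92), a log2FC of -1.07 ± 0.24 (edgeR FDR = 0.001; -1.24 with the RPE score as covariate). LIMA1, which bundles actin at junctions, rose by 0.40 ± 0.09 (FDR = 4.82e-04). Of the nectins, adhesion proteins that seed junctions beside cadherins, 1 of 5 was higher, PVRL2 XLOC_010549 with 0.50 ± 0.13 (FDR = 0.00244, and 0.0783 with the RPE score). The other tested PVRL2 loci, XLOC_010547 and XLOC_010548, had -0.13 and -0.28 (FDR = 0.507 and 0.426). Planar polarity partners had 3 of 14 higher and 1 lower, led by PRICKLE2 XLOC_016008, a cytoplasmic polarity protein, with 0.77 ± 0.14 (FDR = 5.52e-05) and PRICKLE3 with 0.57 ± 0.17 (FDR = 0.0125, and 0.616 with the RPE score). The 1 lower was another PRICKLE2 locus, PRICKLE2(2OF2) XLOC_021169, with -0.52 ± 0.20 (FDR = 0.0428), a call kept in 10 of 20 fits without 1 fish. The cadherin-cleaving proteases had log2FC values from -0.14 to 0.18 in 3 loci, with 0 called (0 at an unadjusted p under 0.05, 0 by DESeq2).

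Among cadherin-related proteins and calsyntenins, 1 of 9 was higher and 2 were lower. CDHR1A, a locus of the photoreceptor cadherin at the base of outer segments, ranged from 6.35 to 27.3 CPM at 6 weeks (median 19.9) and from 3.395 to 15.9 at 18 weeks (10.4). Its log2FC was -0.81 ± 0.20 (edgeR FDR = 0.00171), and -0.51 (FDR = 0.228) with the RPE score as covariate. The more abundant CDHR1 (2 OF 2) XLOC_018771, with means of 127.2 CPM at 6 weeks and 128.9 CPM at 18 weeks, was not called (log2FC 0.02, FDR = 0.906). DSC2L, a desmosomal cadherin, had -0.63 ± 0.22 (FDR = 0.0281; 0.0589 without 18-week fish 1 and 4). Of the cadherin repressors, transcription factors that silence E-cadherin in epithelia, 1 of 4 was higher, ZEB1A XLOC_015190 with 0.41 ± 0.13 (FDR = 0.0126, and 0.488 with the RPE score), and 1 lower, ZEB2B XLOC_016307 with -0.25 ± 0.10 (FDR = 0.0456; a log2FC of 0.05 with library size alone), a call kept in 8 of 20 fits without 1 fish. The second locus of each name pointed the other way and was not called, with -0.52 ± 0.26 (edgeR FDR = 0.141) for ZEB1A XLOC_015191 and 0.15 ± 0.23 (FDR = 0.67) for ZEB2B XLOC_016308.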

How the data were processed

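Counts per locus were deposited by the authors without normalization, for 30 fish whose age and number were taken from the sample titles. The authors trimmed QuantSeq 3′ reads (Trim Galore 0.6.7, cutadapt 3.4, FastQC 0.11.9), mapped them with STAR 2.7.0 to a custom transcriptome on the draft genome with long-read models, cleaned them with SAMtools 1.9.4 and counted with HTSeq 0.11.2, while edgeR 3.42.4 served their comparisons. The strand setting of the counting is not given in the sources used here, so reads of overlapping antisense genes may not be told apart. The annotation deposited by the authors gives the percent of pooled single cells in which a locus was detected, and this was used as a description only.

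Reads that HTSeq put on no feature (18.0% to 27.7% per fish) or left ambiguous (0.838% to 1.85%) were kept out of library sizes and tests. The filterByExpr filter kept loci with 99.6% of the counts. A quasi-likelihood model (glmQLFit) with TMM factors and a coefficient for each age took in the 30 fish, and pairs of ages went through glmQLFTest, with p-values adjusted after Benjamini and Hochberg (edgeR 4.0.16, limma 3.58.1, R 4.3.3). A locus was called at an FDR under 0.05, and past both thresholds where the absolute log2FC was also at least 1. Standard errors were taken from the log2FC and its F statistic (log2FC over the root of F). For log2 CPM the prior count was 2. Counting error adds to the spread between fish, so loci with few counts are measured less precisely. Loci were named by rule: members past both thresholds, up to 8 rises and 8 falls by log2FC among called members at 18 against 6 weeks, all CDH24, CDH2, CDH4 and CTNNA2 loci, the highest locus of each class, and up to 2 called loci per partner list. Further loci given with values, such as PRICKLE2(2OF2), CELSR1A, CELSR3 and the CDH6 loci, lie outside this rule and were added with their values known. Members, classes, lists and tests were chosen with earlier results of these data known. RefSeq names (assembly NfurGRZ-RIMD1) matched 55 of 74 members, 27 by gene identifier and 28 by symbol, and served only for neighbours by gene identifier, with no coordinates, since the builds differ. Alternatives were library size alone, RLE factors, DESeq2 1.42.0, no filter, the RPE score as covariate, the fish number as a block, the 20 fish compared only, leaving out each fish, and, added after seeing the data, leaving out 18-week fish 1 and 4.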

Additional observations from a re-analysis of the deposited data

Results flagged for a closer look

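Among 78 groups of 10 fish (26 named or called loci at 3 ages), 6 held a highest or lowest fish whose gap to the next fish was large against the range of its group by Dixon's critical value, where chance gives about 1 in 20, or 3.9. CTNNA2 XLOC_006498 reached 121.0 CPM in 6-week fish 6, with the next fish at 97.8 CPM. FAT1 reached 53.94 CPM in 18-week fish 1, with the next at 34.0 CPM. PCDH9 XLOC_012869 was at 16.79 CPM in the same 18-week fish 1, with the next at 30.3 CPM. PCDH20 reached 14.65 CPM in 6-week fish 10, with the next at 9.76 CPM. CDH18(1OF2) was at 17.89 CPM in 12-week fish 6, with the next at 25.0 CPM, and PCDH1A XLOC_017759 at 8.535 CPM in 6-week fish 6, with the next at 17.01 CPM. Of the 6, 2 belong to 18-week fish 1, which also stood apart on the first principal component. As many belong to 6-week fish 6, which at -15.1 lay among the other 6-week fish on that component.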

How the results depend on the processing

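At 18 against 6 weeks, 15 members were lower and 1 higher with TMM factors. The share of all tested loci called lower was 15.2% in that fit. The lower count was 3 with library size alone (4.56% of all loci), 16 with RLE factors (15.4%), 18 with DESeq2 (16%) and 13 with the RPE score (5.81%). It was 14 without the filter, 12 in the fit of the 20 fish and 15 without 18-week fish 1 and 4. For these settings the shares of all loci are not given, so their counts describe members only. The higher count was 13 with library size alone (46.1% of all loci) and 0 with the RPE score (4.62%), against 14.0% of all loci with TMM factors. Past both thresholds lay 1 member, but 2 with library size alone (with DCHS2 at 1.09), 2 with the RPE score (with PCDH7B at -1.0) and 3 without the filter, which brought in CDH26(1OF2) XLOC_021182 and XLOC_021183, whose counts came mostly from 6-week fish 6. Members without overlap were 1 lower in both comparisons with old fish and 0 with library size alone. At 12 against 6 weeks, PCDH2AC XLOC_002511 made 1 lower in the fit of the 20 fish (-0.54) and 1 without 18-week fish 1 and 4 (-0.56). At 18 against 12 weeks, library size alone gave 5 higher (21.0% of all loci) and 2 lower (2.86%), and leaving out 18-week fish 1 and 4 gave 1 higher (DCHS2) and 2 lower. At 18 against 6 weeks the sign of 21 of 54 members turned with library size alone, 11 with the RPE score, 3 without 18-week fish 1 and 4 and 2 without the filter. A call in either fit went with 3 of these turns, all with library size alone: PCDH2AC XLOC_002164 (0.23), CTNND1 (1 OF 2) XLOC_006761 (0.29) and CTNND2B XLOC_015467 (0.02).

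Leaving out each of the 30 fish in turn gave 12 to 16 lower, 1 to 2 higher and 1 to 2 past both thresholds at 18 against 6 weeks, 0 to 1 lower and 0 to 0 higher at 12 against 6 weeks, and 2 to 6 lower and 0 to 2 higher at 18 against 12 weeks. Over these fits the 26 named or called loci changed sign with a call in 0 cases. Of 10 same-numbered pairs, 0 correlated over 0.1 in their deviations at 18 against 6 weeks, 0 at 12 against 6 weeks and 2 at 18 against 12 weeks (at most 0.193). The sample titles do not say what the fish numbers stand for, and these correlations cannot exclude a shared handling step. With the fish number as a replicate block, 13 members were lower, 1 higher and 1 past both thresholds at 18 against 6 weeks, and 4 lower at 18 against 12 weeks. Shares of all loci are not given for the block or for the fits without 1 fish, so these counts describe members only.

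The filter on low counts left 20 members untested. The calls of CDH24(2OF2), PCDH20 and PCDH2AC XLOC_002165 at 18 against 6 weeks were lost in 9, 12 and 12 of 20 fits without 1 fish, and that of DCHS1B in 1. With library size alone 12 of the 15 lower calls were lost, and only PCDH2AC XLOC_002511, PCDH7B and PCDH9 XLOC_012870 were called lower with TMM factors and with library size alone. The cause of each change of call under another setting was not tested.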
